A study of Mus musculus with 58 samples.

Results

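The acute phase proteins examined here were 10 genes listed by name: the serum amyloid A genes Saa1, Saa2, Saa3 and Saa4, the orosomucoid genes Orm1, Orm2 and Orm3, haptoglobin (Hp), lipocalin 2 (Lcn2) and the interleukin 1 receptor antagonist (Il1rn). They were listed by gene symbol, with earlier results of these data known. Each was read on the brightest probe cluster that names that gene alone. Of the 10 genes, 9 had such a cluster among the 22180 genes measured. Saa1 had none, because its probes lie in a cluster annotated to both Saa1 and Saa2.

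The arrays came from adult mice on a mixed FVB/NJ, C57BL/6 and 129/Sv background, all of which had been injected after birth with adeno-associated virus (AAV), a gene therapy vector that can insert into the genome. There were 29 liver tumors and 29 pieces of liver labelled normal, taken from 39 animals by the titles, and the normal livers carried the vector exposure too. Tumor and normal liver of the same animal made 18 pairs, and 1 animal gave 2 tumors. The gender label was female for 11 tumors and 9 normal livers and male for 17 tumors and 20 normal livers, and 1 tumor had no such label. Some titles bear the marks -/- or +/- and the labels do not say for which gene. The title of normal liver 4 also bears GFP. For each animal the vector, its dose and the age at tissue collection are not stated in the labels. The series compared tumors with normal liver because insertion of AAV had been considered as a cause of hepatocellular carcinoma.

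Acute phase proteins are plasma proteins whose output by hepatocytes changes during infection or injury. Interleukin 6, acting through STAT3, and interleukin 1, acting through NF-kB and C/EBP factors, are the main signals for the positive ones, which rise. Serum amyloid A is carried on high density lipoprotein, orosomucoid binds drugs and dampens inflammation, haptoglobin captures free haemoglobin, lipocalin 2 binds the siderophores by which bacteria take up iron, and Il1rn blocks the interleukin 1 receptor. In the mouse, serum amyloid A is the acute phase reactant with the widest range, and C-reactive protein is a minor one.

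Values are log2 intensities, so a difference of 1 is a factor of 2, and levels of different genes are not compared because each probe cluster has its own brightness. The 58 array medians lay between 6.72 and 7.15. In 7 of the 57 arrays with a gender label, Xist and the Y-linked genes went against the label. They were tumors 3, 14, 15 and 28 and normal livers 3, 14 and 15. Tumor 9 correlated least with the other arrays (mean r = 0.873), followed by tumor 20 (0.911) and normal liver 16 (0.936). Tumor 9 held the lowest albumin (Alb) of the 29 tumors, at 10.47, and the highest Cd3g (12.26), Ighm (13.42) and Jchain (12.41), genes of T cells, B cells and plasma cells. In bulk tissue, fewer cells of a type and less RNA per cell cannot be told apart. Hepatocyte markers were otherwise present in both tissues. In tumors 0 of 12 were higher and 4 of 12 (33.3%) lower over all arrays, against 17.9% and 14.3% of all genes. In the pairs 1 was higher and 2 lower, against 12.6% and 8.13% of all genes. The summed hepatocyte level was 11.62 in tumor 9, between 15.80 and 16.41 in the other tumors and between 15.85 and 16.35 in normal livers. Its part in the results below was not tested.

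Across all 58 arrays the acute phase genes did not all change in the same direction. Saa4, Orm3 and Hp were lower in tumors than in normal liver, and Il1rn was higher. Saa2 (-1.11), Saa3 (-0.84) and Orm1 (-0.51), with negative log2 changes, and Orm2 (0.21) and Lcn2 (0.32), with positive ones, did not pass the test. Whether the changes of single genes differ from each other was not tested. Of the 9 measured genes, 3 (33.3%) were therefore lower, against a background of 14.3% of all 22180 genes, and 1 (11.1%) was higher, against a background of 17.9%. The threshold was an adjusted p under 0.05 from limma, a linear model fitted to all genes with the animal as a random block. The median log2 change was -0.51 over the 9 genes and -0.02 over all genes. With each animal as its own block, limma on the 18 pairs called the same 4 genes in the same directions. The backgrounds in the pairs were 8.13% of genes lower and 12.6% higher.

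**Figure D1:**
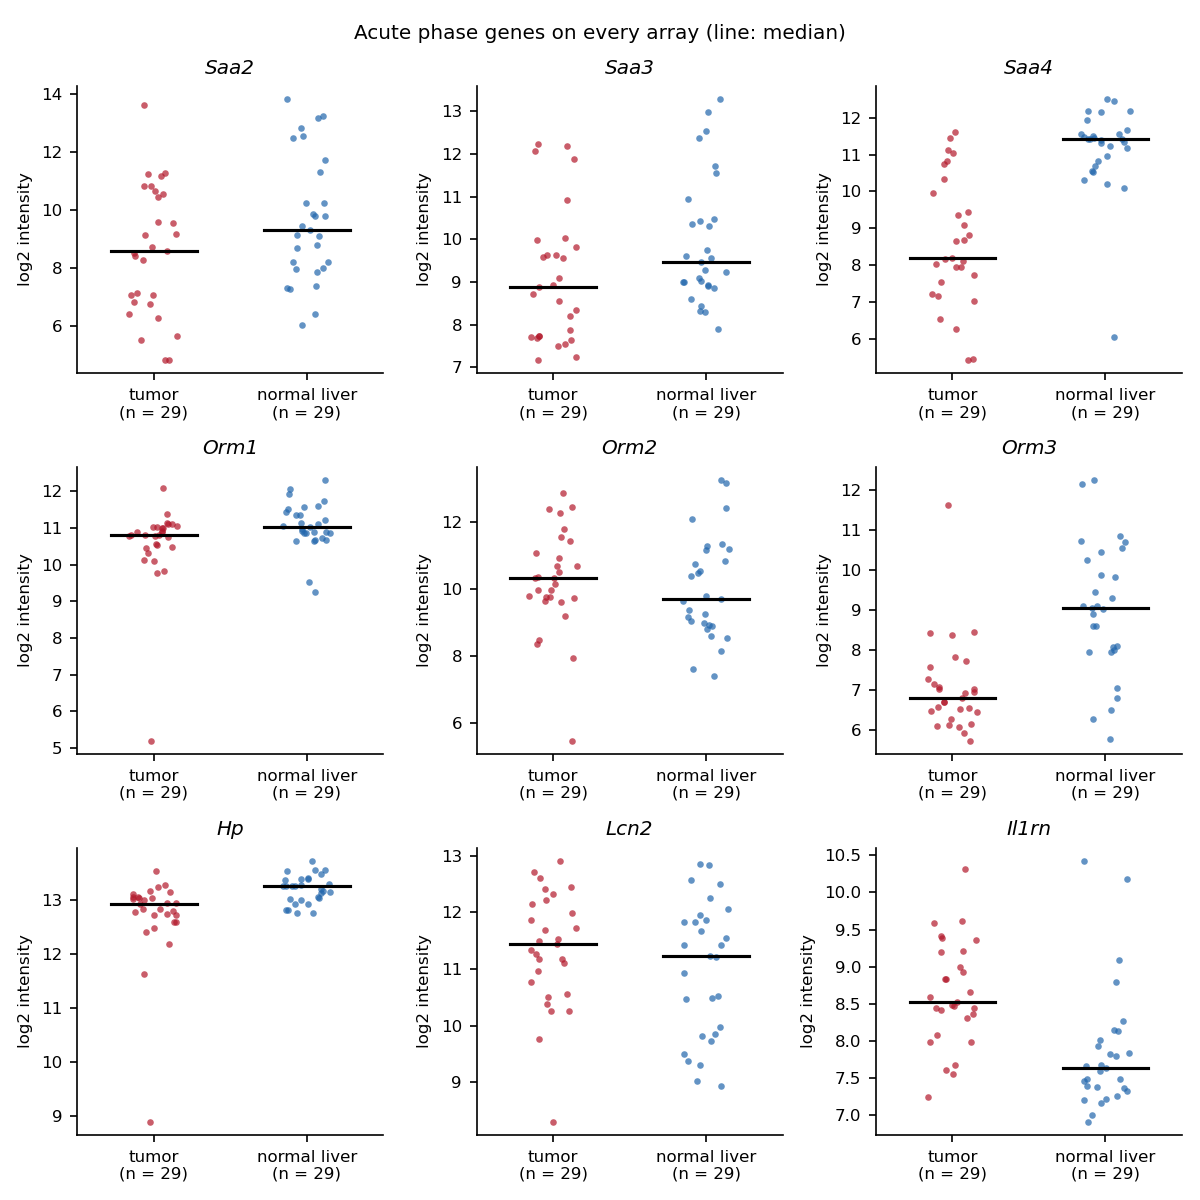
Log2 intensity (vertical axes) of the 9 measured acute phase genes on every array, with tumors on the left and normal livers on the right of each panel. Each point is 1 array and the black line is the median of 29 arrays. Saa4 and Orm3 separate the tissues most, Il1rn is the gene with the higher tumor median that passed the test, and the low point in the tumor column of Hp and Orm1 is tumor 9.

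The serum amyloid A genes lie side by side on chromosome 7 in the RefSeq order Saa3, Saa4, Saa1, Saa2. Saa4 encodes the constitutive serum amyloid A of the liver, which is not a strong acute phase reactant. It ranged over 5.43, 8.18 and 11.62 (lowest, median, highest) in tumors, against 6.05, 11.42 and 12.51 in normal livers. Only 2 of the 29 tumors lay above the median of the normal livers, and 28 of 29 normal livers were at 10.10 or higher. The tumor level of Saa4 was 5.92-fold lower (log2 change -2.57, SE 0.36, limma adjusted p = 1.2e-07). Among the 18 pairs the tumor was the lower in 16. The paired log2 change was -2.86 (SE 0.46, limma adjusted p = 0.00017, exact sign-flip permutation p = 3.1e-05, two-sided and, as for every gene below, not adjusted). The paired differences spread from -6.73 in the pairs of tumors 2 and 9 to 0.23 in the pair of tumor 19. The 2 tumors with Saa4 at the level of normal liver were tumor 1 (11.62) and tumor 19 (11.46).

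Saa2 encodes one of the inducible serum amyloid A proteins of the liver, and its cluster had the widest range of the 9 genes in both tissues. It had 4.81, 8.56 and 13.61 in tumors, against 6.04, 9.31 and 13.83 in normal livers. The 2 tissues overlapped along most of that range, although 4 tumors lay below the lowest normal liver. Saa2 had a log2 change of -1.11 (SE 0.53, limma adjusted p = 0.101), which did not pass the test. The pairs pointed the same way in 14 of 18, with a paired change of -1.49 (SE 0.62, limma adjusted p = 0.094, exact sign-flip permutation p = 0.045, two-sided and unadjusted). Its paired differences had an SD of 2.91, so the pairs disagreed by more than the mean difference. In the pair of tumor 2, Saa2 was 5.49 in the tumor and 12.84 in the normal liver. In the pair of tumor 4 the order was the opposite, with 10.45 in the tumor and 6.39 in the normal liver. Saa2 passed the test (adjusted p = 0.044) once tumor 20, the tumor with the highest value, was left out.

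The cluster annotated to both Saa1 and Saa2 had 4.39, 7.61 and 13.36 in tumors, against 6.19, 9.13 and 13.33 in normal livers. Tested with all other clusters of several symbols, over 23994 features, its tumor level was 3.53-fold lower (log2 change -1.82, SE 0.52, limma adjusted p = 0.0051). It was lower in 13 of the 18 pairs (paired log2 change -2.20, limma adjusted p = 0.016). The signal of this cluster cannot be assigned to Saa1 or to Saa2, and the RefSeq table lists each of these symbols among the synonyms of the other.

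Saa3, the serum amyloid A gene induced in macrophages and other cells outside hepatocytes as well as in liver, had 7.17, 8.88 and 12.23 in tumors, against 7.91, 9.47 and 13.28 in normal livers. In 10 tumors it was below the lowest normal liver, while a handful of tumors stood high. Tumors 20, 16, 23 and 7 formed the top of the tumor range. The log2 change was -0.84 (SE 0.36, limma adjusted p = 0.068) and the paired change -1.06 with 13 of 18 pairs lower (SE 0.38, limma adjusted p = 0.055). Neither passed the test, while the unadjusted exact sign-flip permutation p was 0.023, two-sided. Leaving out any 1 of tumors 7, 15, 16, 20 and 23 or normal liver 21 brought Saa3 under the threshold, with an adjusted p of 0.032 without tumor 20.

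The upstream sequences of Saa1, Saa2 and Saa4 are printed. Saa1 and Saa2 share a probe cluster that was lower in tumors, and Saa4 passed the test on a cluster of its own. Each run is 300 bases of RefSeq on GRCm38.p6, from 250 bases before the gene's start to 50 after it, 5′ to 3′ along the gene. Saa1 is chr7:46742931-46743230 on the minus strand, Saa2 is chr7:46751583-46751882 on the plus strand and Saa4 is chr7:46732554-46732853 on the minus strand. Capitals mark matches, on either strand, to the C/EBP-type pattern TTNNGNAA, the STAT-type pattern TTCNNNGAA, the interleukin 6 element CTGGGAA or the NF-kB consensus. The upstream sequences of 32851 gene starts of the same length contained them in 40.7%, 8.30%, 11.1% and 8.46% of cases.
Saa1: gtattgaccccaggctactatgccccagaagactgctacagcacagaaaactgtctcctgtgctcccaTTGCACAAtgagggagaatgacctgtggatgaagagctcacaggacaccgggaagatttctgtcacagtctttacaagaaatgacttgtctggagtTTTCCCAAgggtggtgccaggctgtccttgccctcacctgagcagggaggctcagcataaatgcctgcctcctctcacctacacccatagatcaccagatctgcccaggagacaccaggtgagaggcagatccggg
Saa2: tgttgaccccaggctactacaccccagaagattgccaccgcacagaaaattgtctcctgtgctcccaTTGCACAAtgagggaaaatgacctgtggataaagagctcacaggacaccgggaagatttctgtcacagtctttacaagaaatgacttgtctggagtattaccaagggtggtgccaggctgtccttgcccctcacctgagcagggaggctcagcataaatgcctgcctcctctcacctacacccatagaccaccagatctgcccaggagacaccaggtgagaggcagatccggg
Saa4: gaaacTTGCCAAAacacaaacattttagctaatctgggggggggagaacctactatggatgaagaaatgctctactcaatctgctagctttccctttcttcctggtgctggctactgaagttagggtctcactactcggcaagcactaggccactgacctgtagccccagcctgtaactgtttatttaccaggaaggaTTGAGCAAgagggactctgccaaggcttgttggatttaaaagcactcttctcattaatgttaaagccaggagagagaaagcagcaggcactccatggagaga
The Saa1 and Saa2 sequences were identical at 287 of 301 aligned positions (95.3%). Both held the C/EBP-type match TTGCACAA, and Saa1 held a further match, TTTCCCAA, that Saa2 lacked. Saa4 held the C/EBP-type matches TTGCCAAA and TTGAGCAA. None of the 3 sequences held letters of the other patterns. Such matches describe letters and are not evidence of a bound factor.

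The orosomucoid genes lie in the order Orm1, Orm3, Orm2 on chromosome 4 and encode alpha-1-acid glycoproteins of the liver. Orm3 had 5.73, 6.81 and 11.61 in tumors, against 5.78, 9.04 and 12.24 in normal livers. All tumors except tumor 20 lay below the median of the normal livers, and the next highest tumor, tumor 24, had 8.44. The tumor level of Orm3 was 3.94-fold lower (log2 change -1.98, SE 0.34, limma adjusted p = 4.5e-06). It was the only 1 of the 9 genes to be lower in the tumor of all 18 pairs. The paired log2 change was -2.25 (SE 0.31, limma adjusted p = 5.2e-05), and its exact sign-flip permutation p of 7.6e-06, two-sided, is the smallest that 18 pairs can give. The differences ran from -6.23 in the pair of tumor 10 to -0.26 in the pair of tumor 1.

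Orm1, an acute phase form of mouse liver, had 5.19, 10.80 and 12.10 in tumors, against 9.25, 11.03 and 12.31 in normal livers. The medians lay close together, and the low end of the tumors was tumor 9 alone, since the next lowest tumor had 9.78. Its log2 change was -0.51 (SE 0.23, limma adjusted p = 0.077). The pairs gave -0.74, with 13 of 18 lower (SE 0.32, limma adjusted p = 0.104), so Orm1 did not pass either adjusted test. Its exact sign-flip permutation p, which is unadjusted, was 0.0076, two-sided. Without tumor 9 the change of Orm1 over all arrays was -0.30. Without the pair of tumor 9 the paired change was -0.43 and passed the test (limma adjusted p = 0.045).

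Orm2 was not called, and whether its change differs from those of Orm1 and Orm3 was not tested. It had 5.45, 10.33 and 12.89 in tumors, against 7.38, 9.70 and 13.27 in normal livers, and 22 of 29 tumors were above the median of the normal livers. The log2 change of 0.21 (SE 0.37, limma adjusted p = 0.70) did not pass the test. Of the 18 pairs, 6 were higher in the tumor and 12 lower, with a paired change of -0.05 (SE 0.42, exact sign-flip permutation p = 0.92, two-sided). Its single pairs moved far in both directions. Orm2 was 4.27 log2 units higher in tumor 11 than in its normal liver and changed by -3.54 between tumor 9 and its own normal liver.

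The upstream sequences of Orm2 and Orm3 are given because these adjacent genes are close copies, of which Orm3 was called and Orm2 was not. Orm2 is chr4:63362199-63362498 and Orm3 is chr4:63355908-63356207 in GRCm38.p6, both on the plus strand, with the same length and the same meaning of capitals as above.
Orm2: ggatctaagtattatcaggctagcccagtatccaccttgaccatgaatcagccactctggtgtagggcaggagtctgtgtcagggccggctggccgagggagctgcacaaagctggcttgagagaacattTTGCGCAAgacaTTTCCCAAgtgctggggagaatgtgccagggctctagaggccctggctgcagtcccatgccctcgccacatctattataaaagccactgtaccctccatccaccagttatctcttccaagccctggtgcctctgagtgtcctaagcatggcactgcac
Orm3: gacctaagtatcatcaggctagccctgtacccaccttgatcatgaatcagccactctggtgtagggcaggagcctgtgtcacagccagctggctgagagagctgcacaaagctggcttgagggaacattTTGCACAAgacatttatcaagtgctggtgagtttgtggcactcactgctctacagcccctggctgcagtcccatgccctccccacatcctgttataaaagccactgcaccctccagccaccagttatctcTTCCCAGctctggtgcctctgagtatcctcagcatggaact
The 2 runs were identical at 264 of 305 aligned positions (86.6%). Both carried a C/EBP-type match, TTGCGCAA in Orm2, beginning at -120 from the start, and TTGCACAA in Orm3, beginning at -121. Orm2 carried a further match, TTTCCCAA, that Orm3 lacked, and Orm3 carried the reverse complement of the interleukin 6 element, TTCCCAG, past the start. Close copies can share probe signal, and how far the Orm1, Orm2 and Orm3 clusters cross-hybridise was not tested.

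**Figure D2:**
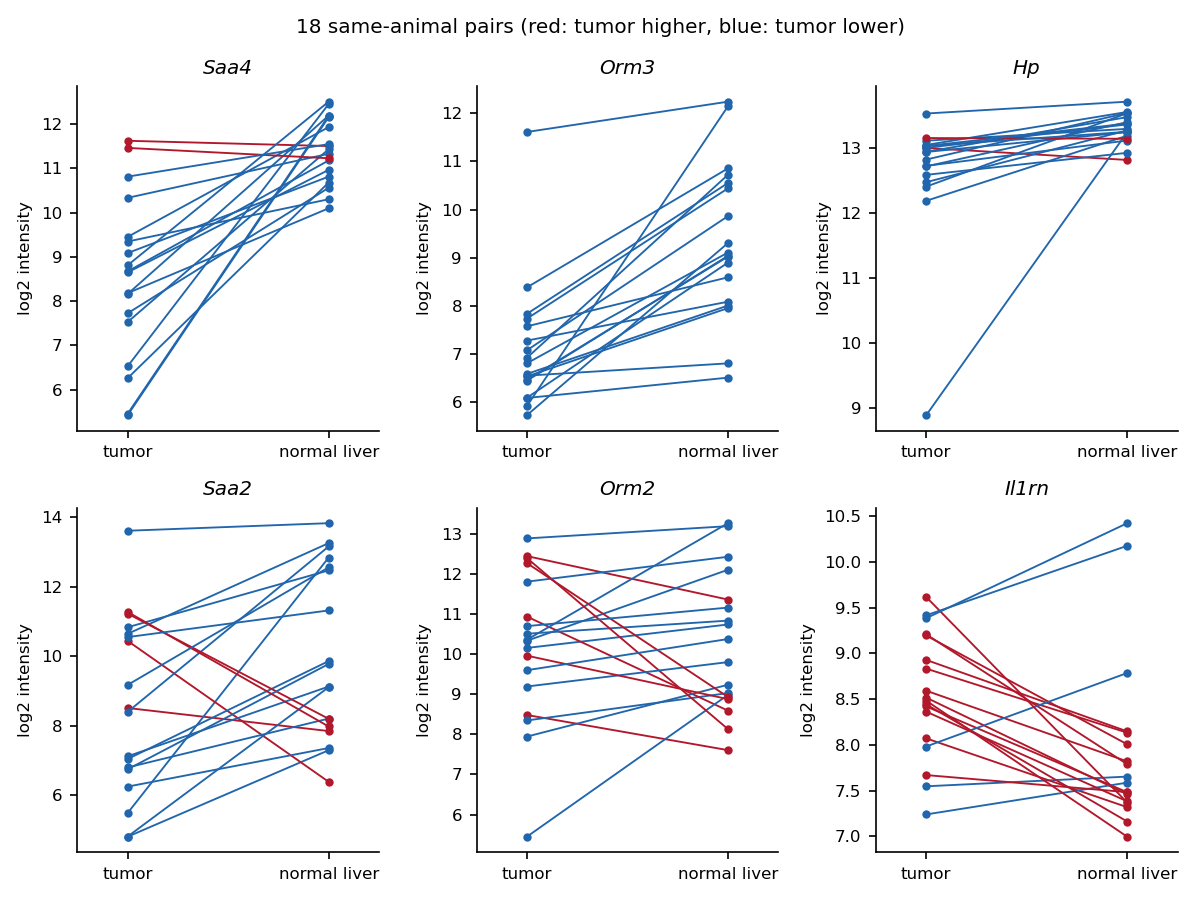
Log2 intensity (vertical axes) of 6 acute phase genes in the tumor (left) and the normal liver (right) of the same animal, 18 pairs. Red lines are pairs with the tumor higher and blue lines pairs with the tumor lower. All 18 lines of Orm3 and 16 of 18 lines of Saa4 and of Hp are blue, and 13 of 18 lines of Il1rn are red. For Saa2 14 of 18 lines are blue and for Orm2 12 of 18, with steep lines in both directions.

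Hp, the haemoglobin scavenger, had 8.88, 12.92 and 13.53 in tumors, against 12.75, 13.24 and 13.71 in normal livers, near the top of the intensity scale on nearly every array. The ranges overlapped at their upper ends, 10 tumors were below the lowest normal liver and 2 were above the normal median. The measured change was small, and how far the top of the intensity scale limits it was not tested. The tumor level of Hp was 1.42-fold lower (log2 change -0.50, SE 0.15, limma adjusted p = 0.0074). The tumor was the lower in 16 of 18 pairs (paired log2 change -0.66, SE 0.22, limma adjusted p = 0.037, exact sign-flip permutation p = 6.1e-05, two-sided). Tumor 9, at 8.88, accounted for the low end, since the next tumor had 11.62. Without tumor 9 the change was -0.36 and the call remained (limma adjusted p = 0.00034). The paired call was lost without the pair of any 1 of tumors 2, 3, 7, 8, 10 and 13, and the adjusted p then reached at most 0.064.

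Lcn2 is made by stressed hepatocytes and stored in neutrophil granules. It had 8.30, 11.44 and 12.91 in tumors, against 8.94, 11.23 and 12.86 in normal livers, and the ranges nearly coincided. The log2 change was 0.32 (SE 0.26, limma adjusted p = 0.37). The paired change was -0.04 (SE 0.16, exact sign-flip permutation p = 0.83, two-sided), with 7 pairs higher and 11 lower. The SD of its paired differences, 0.70, was the smallest of the 9 genes.

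Il1rn encodes the secreted antagonist of interleukin 1 and was the acute phase gene that rose. It had 7.24, 8.52 and 10.32 in tumors, against 6.90, 7.63 and 10.42 in normal livers. The tumors lay above the median of the normal livers in 26 of 29 cases, and 2 normal livers, 16 (10.42) and 19 (10.18), stood among the highest tumors. Il1rn was 1.70-fold higher in tumors (log2 change 0.77, SE 0.19, limma adjusted p = 0.00090). Of the 18 pairs 13 were higher in the tumor (paired log2 change 0.60, SE 0.19, limma adjusted p = 0.033, exact sign-flip permutation p = 0.013, two-sided). The paired call was lost when the pair of any 1 of 12 tumors was left out (2, 3, 4, 5, 6, 7, 8, 10, 11, 14, 15 and 19), with an adjusted p of at most 0.064.

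Arrays of animals without a partner tissue by the titles gave 10 tumor values, after 2 tumors of the same animal were averaged, and 11 normal livers. On a looser reading of the titles, tumor 29 may come from the animal of tumor 4, and normal liver 28 from that of tumors 22 and 26. Normal liver 18 and tumor 17 may also share an animal, and this fit had no block. Il1rn was higher in the tumors of this set as well (log2 change 1.08, SE 0.28, limma adjusted p = 0.022) and was the only 1 of the 9 genes to pass the test. Saa4 had a change of -1.90 (SE 0.65, limma adjusted p = 0.075), Orm3 one of -1.43 (SE 0.51, limma adjusted p = 0.089) and Hp one of -0.19 (SE 0.15, limma adjusted p = 0.50). Lcn2 (1.02) and Orm2 (0.70) had positive changes there and Saa2 (-0.31), Saa3 (-0.35) and Orm1 (-0.03) negative ones, none past the threshold. Whether the paired and unpaired animals differ was not tested.

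**Figure D3:**
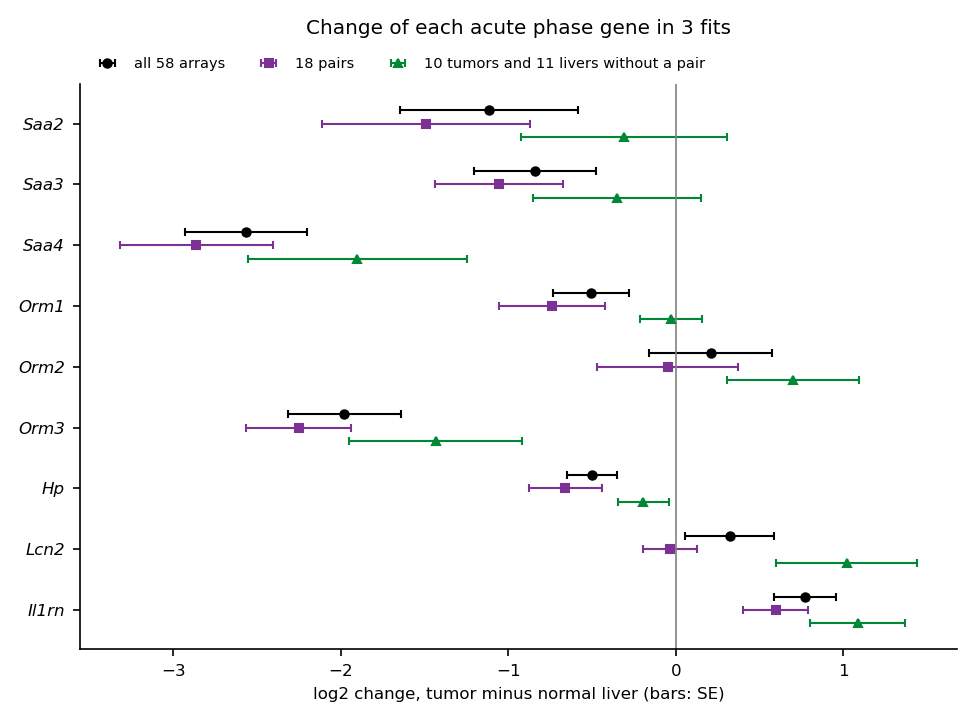
Log2 change, tumor minus normal liver (horizontal axis), of the 9 measured acute phase genes in all 58 arrays (black circles), the 18 pairs (purple squares) and the arrays without a partner (green triangles). Bars are SEs from limma. Saa4 and Orm3 lie left of 0 and Il1rn right of 0 in all 3 fits, while Orm2 and Lcn2 lie on both sides of 0.

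The acute phase genes also varied from animal to animal within a tissue. An array was described as high for a gene when it stood at least 2 log2 units above the median of its own tissue. By that measure tumor 20 and normal liver 19, which are from the same animal, were high for 5 genes each, and no other array was high for more than 3. No array was high for Orm1, Hp or Lcn2, no tumor for Il1rn and no normal liver for Saa4. The 5 were thus all the genes for which any array of that tissue was high. Saa2 was 13.61 in this tumor and 13.83 in its normal liver, the highest of each tissue. Orm3 was 11.61 in this tumor and 12.24 in its normal liver, also the highest of each tissue. Hp too was at its highest in both. The neutrophil genes S100a8 (11.38 in the tumor, 11.47 in the normal liver) and Ly6g (9.86 in the tumor, 10.28 in the normal liver) likewise stood highest of all 29 arrays in each tissue. Il6 was 4.49 in this tumor, at rank 3 of 29, and 4.20 in its normal liver, at rank 22. Socs3, the feedback inhibitor induced by STAT3, was 9.01 in the tumor and 9.47 in the normal liver, at rank 3 in both, and Il1b was at rank 6 in both. The part of neutrophils in the acute phase values of this animal was not tested.

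The pair numbered 16 stood out for Saa3, Lcn2 and Il1rn more than for the orosomucoid genes. Normal liver 16 had the highest Saa3 (13.28), Lcn2 (12.86) and Il1rn (10.42) of the normal livers, and tumor 16 had the highest Lcn2 (12.91) of the tumors and Saa3 of 12.18. The interleukin genes were at their highest here. Il6 was 7.48 in tumor 16 and 9.36 in normal liver 16, and Il1b was 12.31 in the tumor and 12.44 in the normal liver. Socs3 was 10.66 in tumor 16 and 11.32 in normal liver 16. All of these were the highest values of their tissue. Orm3, by contrast, was at or near the median, at 6.81 in tumor 16 and 9.11 in normal liver 16. Saa2 was 9.18 in tumor 16 and 12.56 in normal liver 16. The neutrophil genes stood next to the highest here too. S100a8 was 8.30 in tumor 16 and 10.32 in normal liver 16, and Ly6g was 7.96 in the tumor and 7.94 in the normal liver, each at rank 2 of 29 in its tissue. The part of neutrophils in the values of this pair was not tested. Tumor 23, with the next highest Il6 (6.38) and Il1b (11.45) of the tumors, had the highest Il1rn (10.32) and Saa3 of 12.06, with Orm3 at 6.13.

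Normal livers 2 and 10 showed high Saa2 while their tumors lay below the tumor median. Saa2 was 5.49 in tumor 2 and 12.84 in normal liver 2. In the pair numbered 10 it was 8.40 in the tumor and 13.16 in the normal liver, and Orm3 was 5.92 in the tumor and 12.14 in the normal liver. In the pair numbered 12, Saa2 was 10.65 in the tumor, which was high among tumors, and 13.26 in the normal liver. Saa3 was 8.56 in tumor 12 and 12.54 in normal liver 12. S100a8 was 5.33 in normal liver 2, 5.61 in normal liver 10 and 5.80 in normal liver 12, against a median of 5.38 in normal liver. These values stood at ranks 17, 13 and 9 of 29. The reverse occurred in tumor 15, with Saa2 at 11.28 against 7.98 in normal liver 15, and in tumor 11, at 11.23 against 8.20 in normal liver 11.

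**Figure D4:**
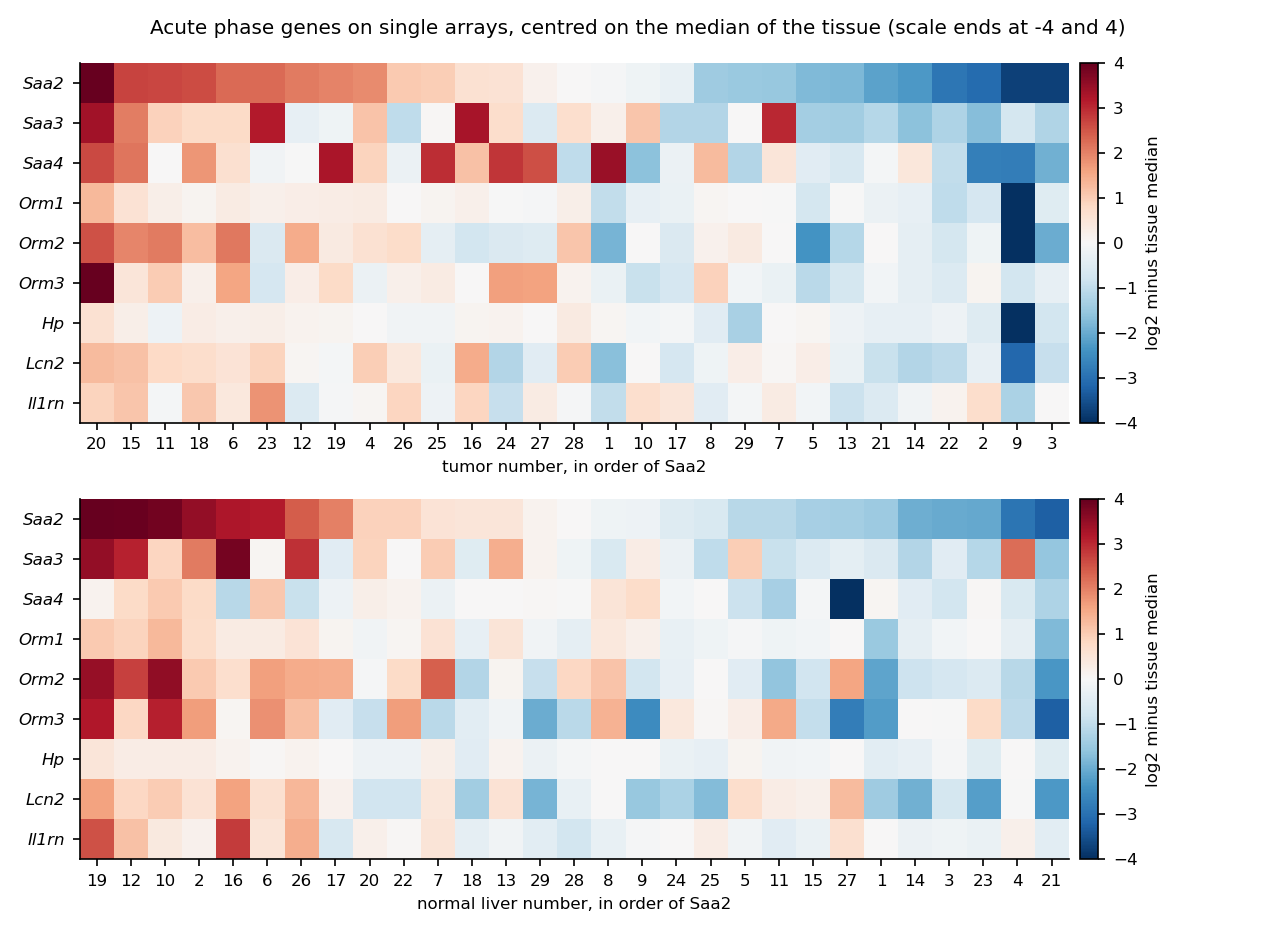
Log2 intensity of the 9 acute phase genes on every array minus the median of the tissue (colour, from -4 in blue to 4 in red), for tumors (upper panel) and normal livers (lower panel). Columns are arrays in order of Saa2, so the Saa2 row is ordered by construction. Tumor 20 and normal liver 19 are red in most rows, tumor 9 is blue in most rows, and normal liver 16 is red for Saa3 and Il1rn and pale for Orm1 and Orm3.

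Tumor and normal liver of an animal were compared over the 18 pairs for each gene, by permuting the pairs 100000 times and adjusting over all 22180 genes. This comparison was chosen after the values had been seen. Lcn2 had the highest correlation of the 9 genes (Pearson r = 0.80, permutation p = 0.00013, adjusted p = 0.072, Spearman rho = 0.65, permutation p = 0.0043). It did not pass after adjustment, and r was 0.72 without the 2 normal livers farthest from the median. Of all genes 29 (0.131%) passed with a positive r, and the median r of all genes was 0.15. Orm3 had an r of 0.52 (permutation p = 0.023, adjusted p = 0.37, rho = 0.39, permutation p = 0.11), and 0.57 without the 2 farthest. Saa2 had an r of 0.32 (permutation p = 0.19, adjusted p = 0.66, rho = 0.28, permutation p = 0.26), and 0.07 without normal livers 12 and 19. Saa4 was the gene with a negative r, -0.21 (permutation p = 0.40, adjusted p = 0.80, rho = -0.13, permutation p = 0.61), and -0.30 without the 2 farthest. For 0 of 9 acute phase genes was a relation past the threshold, and 2 of the 9 had an unadjusted permutation p under 0.05, against 10.8% of all genes.

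The genes most like Saa2 over the 58 arrays, each centred on the mean of its tissue, included Orm2 and several other acute phase genes. Outside the 10 genes, the most similar were Lrg1 (r = 0.76), Steap4 (0.74), Serpina3n (0.74), Tmem176b (0.63), Qsox1 (0.61), Mt2 (0.61), Cxcl1 (0.61), Ifitm2 (0.61), Prg4 (0.61) and H6pd (0.61). Lrg1 and Serpina3n encode plasma acute phase glycoproteins, Steap4 a metalloreductase, Mt2 a metallothionein and Cxcl1 a chemokine that draws neutrophils. Among the 10 genes, r was 0.76 for Orm2, 0.66 for Saa3, 0.65 for Lcn2, 0.64 for Orm1, 0.60 for Orm3, 0.54 for Hp, 0.54 for Il1rn and 0.52 for Saa4. Saa4 was thus the last of the 8 over the 58 arrays, with 0.61 in the 29 tumors and 0.39 in the 29 normal livers. In the 29 tumors Orm3 (0.60), Orm1 (0.60), Hp (0.58) and Il1rn (0.46) were below it. These correlations describe arrays that share animals, and no test was made of them. Without tumor 9, tumor 20 and normal liver 19 the r of Orm2 was 0.71 and that of Lrg1 0.71. The median r with Saa2 was 0.54 over 22 other positive acute phase genes, 0.44 over 13 neutrophil markers, 0.21 over 12 hepatocyte markers and 0.00 over all genes.

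**Figure D5:**
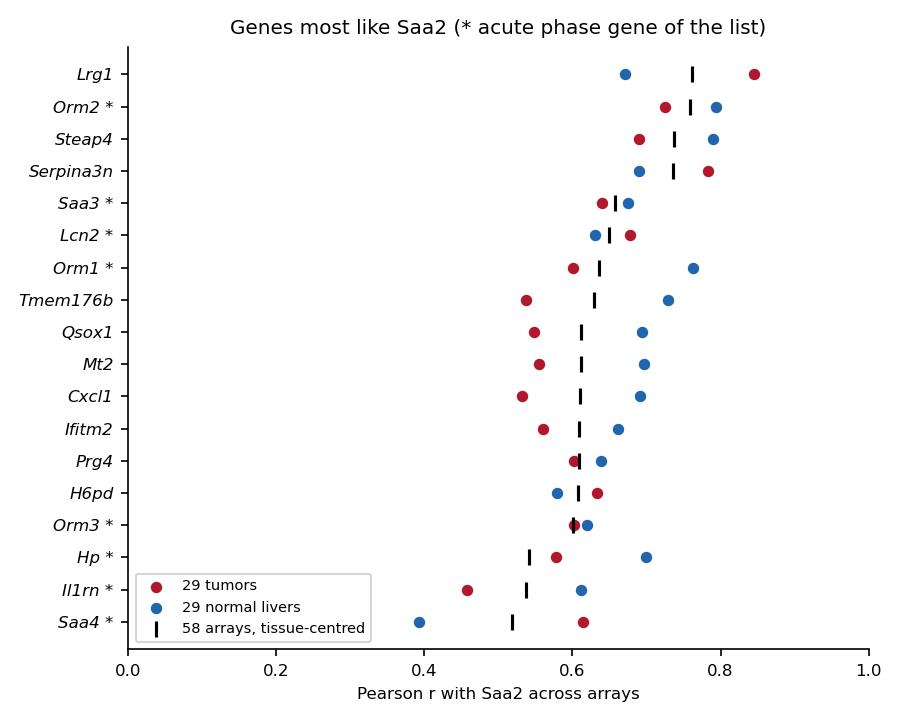
Pearson r with Saa2 across arrays (horizontal axis) for the 8 other measured acute phase genes (marked *) and the 10 most similar genes outside the list, in 29 tumors (red), 29 normal livers (blue) and all 58 arrays after centring each tissue on its mean (black bar). Over all 58 arrays Lrg1 and Orm2 lead and Saa4 is last, while in the 29 tumors Saa4 is above Orm3, Orm1, Hp and Il1rn.

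The wider acute phase programme was read on a list of 24 further positive acute phase genes, 22 of them measured. Of these 12 (54.5%) were lower in tumors, against 14.3% of all genes, and 1 (4.55%), Cd14, was higher, against 17.9%. Their median log2 change was -0.47. In the pairs 11 were lower and 1 higher, against 8.13% and 12.6% of all genes. Cfb, complement factor B, had 11.54 ± 0.46 in tumors and 12.13 ± 0.24 in normal livers (SD, n = 29 each; log2 change -0.60, SE 0.09, limma adjusted p = 7.6e-07). C-reactive protein (Crp) fell by 1.38 on the log2 scale, Lrg1 by 1.01, and serum amyloid P (Apcs) by 1.28. Cd14, the lipopolysaccharide co-receptor, rose by 1.29. Of 7 measured negative acute phase genes, which fall in a typical response, 3 (42.9%) were lower and 0 higher, against 14.3% and 17.9% of all genes. The lower ones were Fetub (-1.29), Apoa1 (-0.74) and Rbp4 (-0.36). In the pairs 2 of the 7 (Apoa1 and Fetub) were lower and 0 higher, against 8.13% and 12.6% of all genes. Rbp4 lost its call in the pairs (limma adjusted p = 0.22), with no block (0.067) and without the arrays against their gender label (0.087), and was -0.20 without tumor 9. Positive and negative acute phase genes thus had members that fell in the same comparison.

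The signals upstream of these genes were read on 2 further lists. Of 18 measured genes of interleukin 6 and STAT3 signalling, 2 (11.1%) were lower and 0 higher, against 14.3% and 17.9% of all genes. Both are receptor chains of hepatocytes: Il6ra fell by 0.63 and Lifr by 0.79. Il6 itself was at 4.42 ± 0.72 in tumors and 4.49 ± 0.98 in normal livers, near the low end of the intensity scale. Socs3 did not pass over all arrays (log2 change -0.19, limma adjusted p = 0.41). In the pairs 4 of the 18 genes were lower, against 8.13% of all genes. Socs3 (-0.37, limma adjusted p = 0.0043, lower in 14 of 18) and Il22ra1 (-0.55, limma adjusted p = 0.034) were added there. Of 22 genes of interleukin 1, TNF and NF-kB signalling, 2 (9.09%) were higher and 4 (18.2%) lower, against 17.9% and 14.3% of all genes. The alarmin Il33 rose by 2.02 and Nfkb2 by 0.61, while the interleukin 1 receptor chains Il1rap and Il1r1 fell by 0.75 and 0.73, Nfkbia by 0.42 and Il1a by 0.59. In the pairs 2 were higher and 6 lower, against 12.6% and 8.13% of all genes. Il1b (-0.70, limma adjusted p = 0.0046) and Il18 (-0.38, limma adjusted p = 0.0041) were added there. The antagonist Il1rn rose in the same comparison in which the receptor chains Il1rap and Il1r1 fell, and a link between them was not tested.

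Of 13 genes for receptors and partners of acute phase proteins, 2 (15.4%) were higher and 4 (30.8%) lower, against 17.9% and 14.3% of all genes. Scarb1, a lipoprotein receptor that also binds serum amyloid A, rose by 0.82, and Lrp2, a receptor for lipocalin 2, by 0.13. Cd163, the macrophage receptor for haptoglobin bound to haemoglobin, fell by 0.97 and was lower in all 18 pairs. Lrp1 (-0.38), Slc22a17 (-0.21) and Apoa2 (-0.54) were lower as well. In the pairs Apoa2 (limma adjusted p = 0.12) and Lrp2 (0.14) lost their calls and Fpr2 was lower (-0.42, limma adjusted p = 0.045). Apoa2 was -0.36 without tumor 9. Among 14 macrophage markers 5 (35.7%) were lower and 1 (7.14%) higher, against the same shares of all genes. In the pairs 5 were lower and 0 higher, against 8.13% and 12.6% of all genes. The lower ones were the Kupffer cell genes Clec4f (-2.06), Vsig4 (-2.37), Timd4 (-1.20), Cd5l (-2.12) and Marco (-1.10). The summed macrophage level ran from 11.995 to 14.26 in tumors and from 12.26 to 14.86 in normal livers. Of 13 neutrophil markers 0 passed in either direction over all arrays. In the pairs 3 were lower in tumors by limma, against 8.13% of all genes. The 3 were S100a9 (-0.39, adjusted p = 0.017), Elane (-0.30, adjusted p = 0.043) and Retnlg (-0.55, adjusted p = 0.019). The summed level of the 13 neutrophil markers ran from 10.01 to 14.12 in tumors and from 10.21 to 14.23 in normal livers. The part of these cells in the change of Saa3, Lcn2 and Il1rn was not tested.

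No acute phase gene was called for sex or for the -/- mark. Of the 9 genes, 0 passed for female against male in normal liver (background 0.0496% of all genes), in tumors (0.0225%) or for the difference of the tumor change by sex (0%). At an unadjusted p under 0.05 limma gave 2, 2 and 1 of 9 genes in these comparisons, against 819, 2209 and 1004 of 22180. Saa2 averaged 10.71 ± 2.84 in 9 normal livers of labelled females and 9.19 ± 1.68 in 20 of labelled males (SD; log2 difference 1.54, SE 0.81, limma adjusted p = 1.00). In tumors Saa2 was 9.49 ± 2.19 in 11 labelled females and 7.86 ± 2.08 in 17 labelled males (log2 difference 1.55, SE 0.79, limma adjusted p = 0.51). Tumor 20 and normal liver 19 are both labelled female. The labelled groups hold the 7 arrays whose Xist and Y-linked genes went against the label. Normal liver 3 and tumors 3 and 28 are labelled female, and normal livers and tumors 14 and 15 male. Normal liver 15 is also among the livers marked +/- in the next comparison. Between 4 normal livers of labelled males marked -/- and 5 marked +/-, 0 of 9 genes passed (background 0% of all genes). The titles of normal liver 26 (+/-) and normal liver 27 (-/-) share an animal number, and these arrays, in opposite groups, were read as different animals by their marks. Saa3 had the lowest unadjusted p, with 9.48 ± 0.61 in -/- and 10.88 ± 1.32 in +/- livers (log2 difference -1.40, SE 0.58, limma adjusted p = 0.73). In this comparison 1 of the 9 genes and 1461 of all genes had an unadjusted p under 0.05 in limma.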

How the data were processed

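Total RNA of mouse liver tumors and normal liver was hybridised, 1 array per sample, to Affymetrix gene arrays. The deposited table held log2 values. Per the submitters' processing notes, the authors made them with Affymetrix Expression Console, of which no version, algorithm or annotation build is named there. Values lay between 2.91 and 14.08 and were used as deposited, and arrays have no read depth, so their number limits the precision.

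Of 41345 probe clusters 23521 named 1 gene, 1814 several and 16010 none in the platform annotation. The brightest cluster per single symbol gave 22180 genes. Tissue came from the disease status label and animals from the titles, which also give the pairing. Whether the tissue pieces were otherwise independent is not stated, and p-values measure the spread between these samples. limma 3.58.1 (R 4.3.3, statmod 1.5.0) fitted tumor against normal liver with the animal as a random block (duplicateCorrelation 0.14), the 18 pairs with a fixed replicate block per animal, 4 tissue-by-gender groups (block correlation 0.15), and the -/- mark in 9 normal livers. All used a trended variance and Benjamini-Hochberg adjustment over all genes, with a threshold of 0.05. Paired differences of single genes were also tested by exact sign-flip permutation (262144 sign patterns). The fits were tested on simulated data. Alternatives were no block, other scaling, other cluster choice, a filter on dim genes, sex as covariate, array weights and left-out arrays.

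The members and lists were chosen with earlier results of these data known. Named besides the 10 genes were, from each list, up to 3 genes of smallest adjusted p and that of largest change, a few further list members singled out after their values were seen, and the 10 genes most like Saa2. The rule had named the mean of Saa1 and Saa2, but Saa1 had no cluster of its own. Cell lists without bearing on a result are given as counts. Upstream sequences came from RefSeq (GRCm38.p6), with entries for 8 of the 10 genes, all matched by symbol. Python 3.11.15, scipy 1.17.1 and biopython 1.88 (global alignment) were used.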

Additional observations from a re-analysis of the deposited data

Results flagged for a closer look

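Saa4 in normal liver 27, 1 of 4 normal livers of labelled males marked -/-, was 6.05, and the nearest of the other 3 was 11.23. The gap took up 0.922 of the group's range, above Dixon's 95% critical value for 4 samples. Of 27 combinations of gene and group examined, 1 stood out in this way, and chance gives about 1 in 20. In the same array Apcs (8.46) and Crp (9.91) were the lowest of the 29 normal livers, Orm3 was 6.29 and Alb 13.63. Other acute phase genes were high there, with Lcn2 (12.49) at rank 4 of 29, Il1rn (8.27) at rank 5 and Orm2 (11.30) at rank 6.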

How the results depend on the processing

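The count of acute phase genes called in tumors against normal liver was 4, and between 4 and 6 under every alternative on all arrays (other scaling, cluster choice, filter, sex as covariate, array weights, looser titles) and, chosen after seeing the data, without the arrays that stand apart. In animals without a pair it was 1 (Il1rn). Leaving out each array gave 4 to 7 genes, the 7 being without tumor 20 (Saa2, Saa3 and Orm1 added, all lower). Within pairs the count was 4, and 3 with no replicate block (Il1rn lost). It was 2 without pairs holding an array against its gender label (Orm3 and Saa4), and 2 to 5 when each pair was left out, with 2 without the pair of tumor 2, 3, 8 or 10. Saa4 and Orm3 kept their calls in all these settings except in animals without a pair. Counts for sex and for the mark were 0 throughout. The directions that turned belonged to genes not called over all arrays, although Retnlg was called lower in the pairs (-0.55). With a fixed replicate block per animal, over the 18 pairs, Orm2 was -0.049 and Lcn2 -0.035. Within pairs, centring arrays on their median turned them to 0.0040 and 0.017, and leaving out the pairs of tumors 9 and 20 to 0.19 and 0.058. Retnlg was 0.049 in animals without a pair. The difference of the Saa2 tumor change by sex was -0.036 after centring and -0.018 after quantile normalization. The cause of these turns was not tested. No scaling moved the median change of all genes past 0.1 (values -0.021, 0.031 and 0.012). Besides these, 29 single-gene values lost and 27 gained their call. Arrays high for 4 or more acute phase genes numbered 2 at 2 log2 units above the median, 4 at 1.5 and 1 at 3.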

Other observations

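Markers of the other cell types a liver sample can hold were counted in tumors against normal liver. Of all genes 14.3% were lower and 17.9% higher there, and 8.13% and 12.6% in the pairs. Of 6 cholangiocyte markers 4 (66.7%) were lower, and of 9 T and natural killer cell markers 2 (22.2%) were higher. Of 6 B and plasma cell markers and of the 1 measured red cell marker 0 passed. Of 7 endothelial markers 1 (14.3%) was higher and 2 (28.6%) lower. Of 8 stellate cell and fibroblast markers 3 (37.5%) were higher and 3 (37.5%) lower. In the 18 pairs limma called 1 cholangiocyte marker lower (Pkhd1), while Krt19 (adjusted p = 0.058), Cldn7 (0.087) and Krt7 (0.17) lost their calls. Of the T and natural killer cell markers 1 was then higher (Cd4) and 1 lower (Klrb1c), and Ccl5 lost its call (adjusted p = 0.24).

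Normal liver 21 held the lowest Saa2 (6.04), Saa3 (7.91), Orm1 (9.25), Orm2 (7.38), Orm3 (5.78) and Lcn2 (8.94) of the 29 normal livers, and its Alb was 13.65. S100a8 (4.95) stood at rank 28 of 29 in the same array and Il1b (7.16) at rank 28 as well. Tumor 1 had the highest Alb (13.83), Crp (12.43) and Saa4 (11.62) of the 29 tumors, while its Lcn2 (9.76) and Il1rn (7.55) stood at rank 28 of 29.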
